A study of Mus musculus with 16 samples.

Results

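The comparison is between mouse embryonic stem cell lines held in the ground state and epiblast stem cell lines, the primed state. It uses the 8 arrays whose titles name them 2i mESCs or mEpiSCs, 4 in each group, out of the 16 arrays of the series. The 2i_LIF lines came from pre-implantation embryos and grew with the cytokine LIF and 2i, a pair of inhibitors of the kinases MEK and GSK3. The EpiSC lines came from the epiblast of embryos at day 6.5 and grew with Activin A and bFGF (FGF2). All 8 lines had the 129/Ola background, and 100 ng of total RNA per line was labelled with Cy3 and hybridised to a single-colour Agilent array. Passage numbers were 24, 22, 23 and 22 for 2i_LIF lines 1 to 4 and 24, 24, 24 and 28 for EpiSC lines 1 to 4. The labels give the cell type ESC to every line, EpiSC included, and do not say whether lines came from separate embryos or grew on feeder cells. The other groups of the series, LIF_serum (serum and LIF) and 2iSB_LIF (2i, LIF and SB431542, an inhibitor of the Activin, Nodal and TGF-beta receptors), also came from pre-implantation embryos of 129/Ola mice, with 4 arrays each. Their levels are given beside some genes as a reference.

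Mouse pluripotent cells can be kept in states that correspond to different times of development. Naive cells resemble the epiblast before implantation, and MEK and GSK3 inhibition with LIF holds them there by blocking FGF/ERK signalling, stabilising beta-catenin and activating STAT3. Primed cells resemble the epiblast after implantation and depend on FGF and Activin/Nodal signals, which also pattern that tissue for gastrulation. Both states share the core factors Oct4 (Pou5f1) and Sox2.

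Levels are log2 signals relative to the 75th percentile of the array, so 0 is a probe at that percentile. Differences are 2i_LIF minus EpiSC with the standard error (SE), n = 4 arrays per group, and adjusted p-values are limma values with Benjamini-Hochberg adjustment over the 15521 genes tested. Calls needed 2-fold or more with an adjusted p below 0.05. Testing was limited to genes whose probe, in some group of the series, stood well above background on each of its 4 arrays. Listed genes that were not tested had no named probe or failed that filter. Where one group had a probe well above background on every array and the other on none, the difference is given as a bound, at least so many fold, against the background floor of the dimmer arrays. A probe that was so on only some arrays of a group is given as detected on that number of arrays, and its difference then rests partly on values at background. Signal strength was similar in the groups: 53.3% to 61.9% of probes were well above background on 2i_LIF arrays and 56.4% to 62.4% on EpiSC arrays. The number of arrays limits the precision. In RNA from whole cultures, fewer cells of a type and less RNA per cell cannot be told apart.

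The arrays lay on 2 slides. 2i_LIF arrays 1, 2 and 3 were on slide 1, while 2i_LIF array 4 and all EpiSC arrays were on slide 2. Of the LIF_serum arrays, 1 and 2 were on slide 1 and 3 and 4 on slide 2. Values on slide 2 alone, given below for the gene lists, therefore rest on 1 2i_LIF array, which is assumed to vary like the others. Correlations of levels over the 15321 genes with no missing value on any of the 16 arrays were 0.962 to 0.984 among 2i_LIF arrays, 0.990 to 0.995 among EpiSC arrays and 0.790 to 0.814 between the groups. The first principal component of the 8 arrays held 86.9% of the variance and separated the groups. The second held 5.70% and spread the 2i_LIF arrays from 49.8 (array 1) to -65.9 (array 4), with EpiSC arrays between -3.0 and 3.3.

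The labels give no sex for the lines. Eif2s3y, a Y-linked gene, read 3.09 and 3.62 on EpiSC arrays 1 and 2, and -2.28 and -3.55 on arrays 3 and 4. Xist, the RNA that coats the inactive X chromosome, read -0.36 and 0.02 on EpiSC arrays 3 and 4, and -4.40 and -4.77 on arrays 1 and 2. EpiSC arrays 1 and 2 thus stood apart from arrays 3 and 4 in both genes, and both genes were well above background on all 4 EpiSC arrays. On 2i_LIF arrays Eif2s3y read -5.27, -7.47, -7.26 and -7.25 and Xist -7.47, -7.39, -7.20 and -7.06, and neither was well above background on any of them.

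The 4 genes chosen to mark the states separated the groups in the direction of the labels. Dppa5a, an RNA-binding protein gene of naive cells, read 7.99, 7.79, 8.05 and 8.22 on the 2i_LIF arrays and -3.43, -3.20, -2.97 and -3.51 on the EpiSC arrays, a difference of 11.29 (SE 0.16, adjusted p = 7.15e-16). Tfcp2l1, a transcription factor downstream of LIF, read 4.60, 5.35, 4.39 and 4.27 in 2i_LIF and -2.72, -2.66, -2.95 and -2.63 in EpiSC, a difference of 7.39 (SE 0.30, adjusted p = 4.5e-11). No 2i_LIF array overlapped an EpiSC array for either gene. Fgf5, an FGF ligand made by the epiblast after implantation, read -5.78, -4.42, -2.92 and -7.30 in 2i_LIF and 4.42, 3.72, 3.64 and 3.58 in EpiSC, a difference of -8.94 (SE 0.90, adjusted p = 7.54e-07). Dusp2, a phosphatase that inactivates MAP kinases, read -1.50, -1.84, -3.0 and -1.84 in 2i_LIF and 5.91, 6.41, 5.97 and 5.53 in EpiSC, a difference of -8.0 (SE 0.39, adjusted p = 3.4e-10). Fgf5 was well above background on only 2 of the 4 2i_LIF arrays and was the most variable of the 4 genes there.

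**Figure D1:**
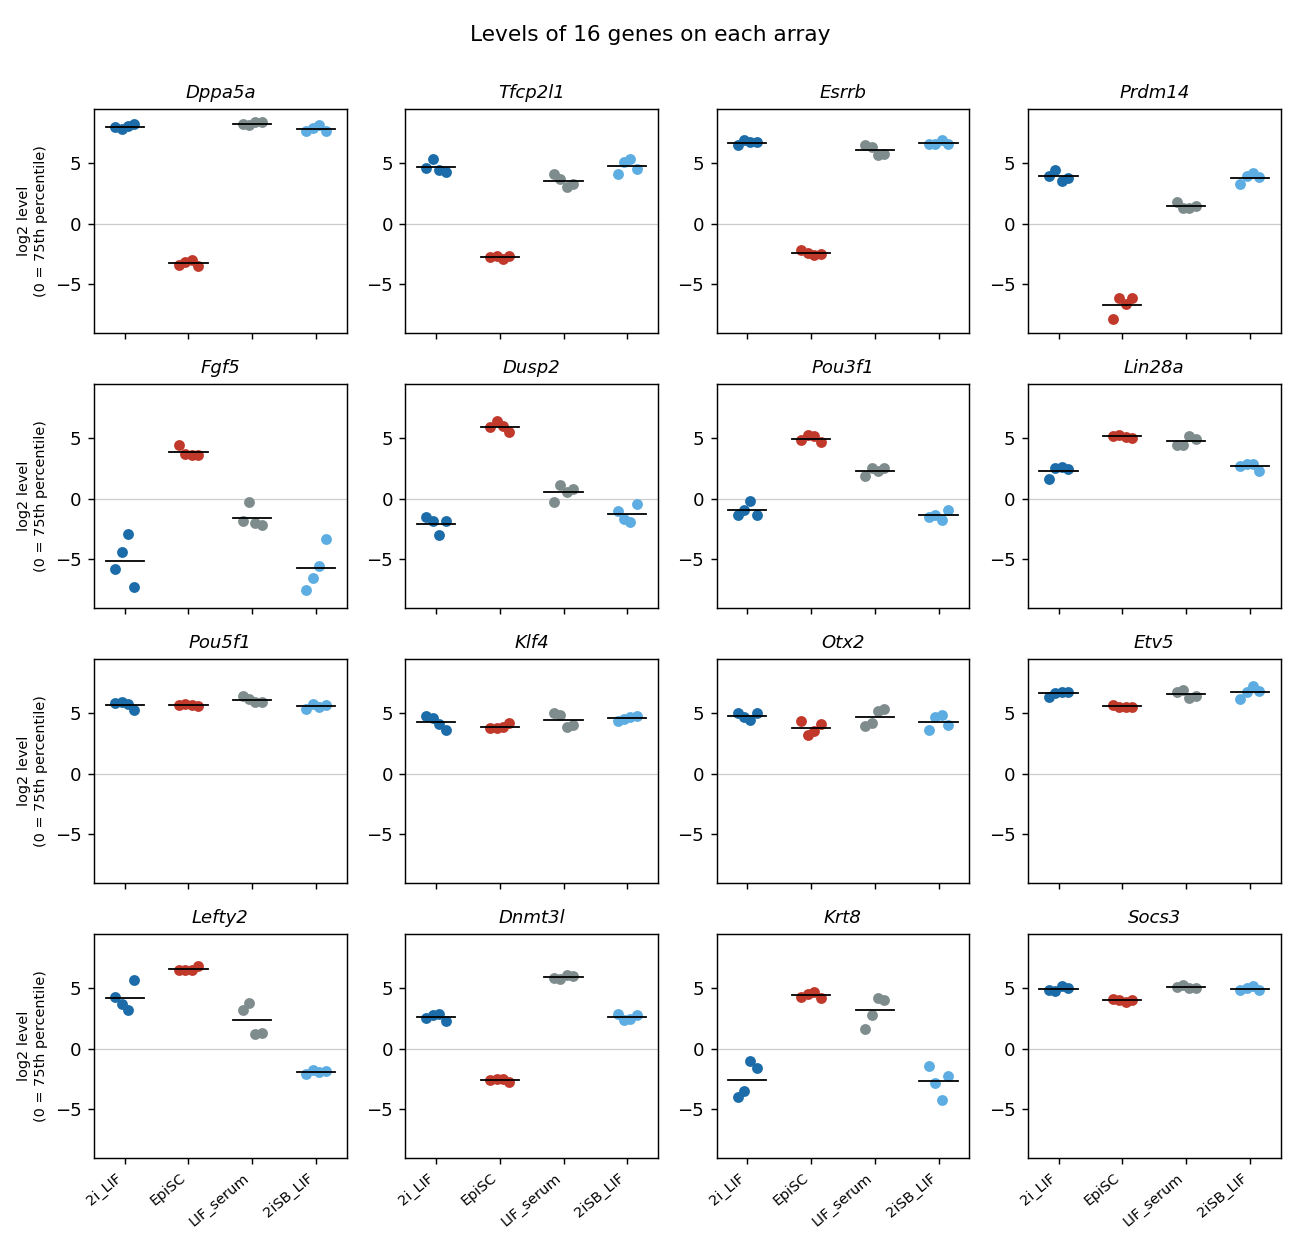
Log2 levels (y axis, 0 is the array's 75th percentile) of 16 genes on each array, grouped by culture (x axis); points are arrays in order of their number and bars are group means. Dppa5a, Tfcp2l1, Esrrb and Prdm14 were higher in 2i_LIF than in EpiSC, Fgf5, Dusp2, Pou3f1, Lin28a and Krt8 were lower, and Pou5f1 and Klf4 overlapped between these groups.

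Over all genes, 5808 of 15521 (37.4%) were called, 2616 (16.9%) higher in 2i_LIF and 3192 (20.6%) higher in EpiSC. Counts of called members in each list below are to be read beside these shares. Differences of at least 16-fold were found in 570 genes called higher and 630 called lower. For 55.2% of the genes tested the 2i_LIF arrays were all above or all below the EpiSC arrays, so lack of overlap alone is common here. The median difference of all genes was -0.04. Centring each array on its median instead shifted it to 0.16 and made 53.5% of the calls higher in 2i_LIF in place of 45.0%, so changes below are relative to the 75th percentile. With the slide as a block 5557 genes were called, and on slide 2 alone 6168, of which 4988 and 4993 were shared with the 5808 in the same direction. In the same fit 2842 genes (18.3%) were called between 2i_LIF and LIF_serum, 6.26% of those tested higher and 12.1% lower in 2i_LIF, and 13 (0.0838%) between 2i_LIF and 2iSB_LIF.

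**Figure D2:**
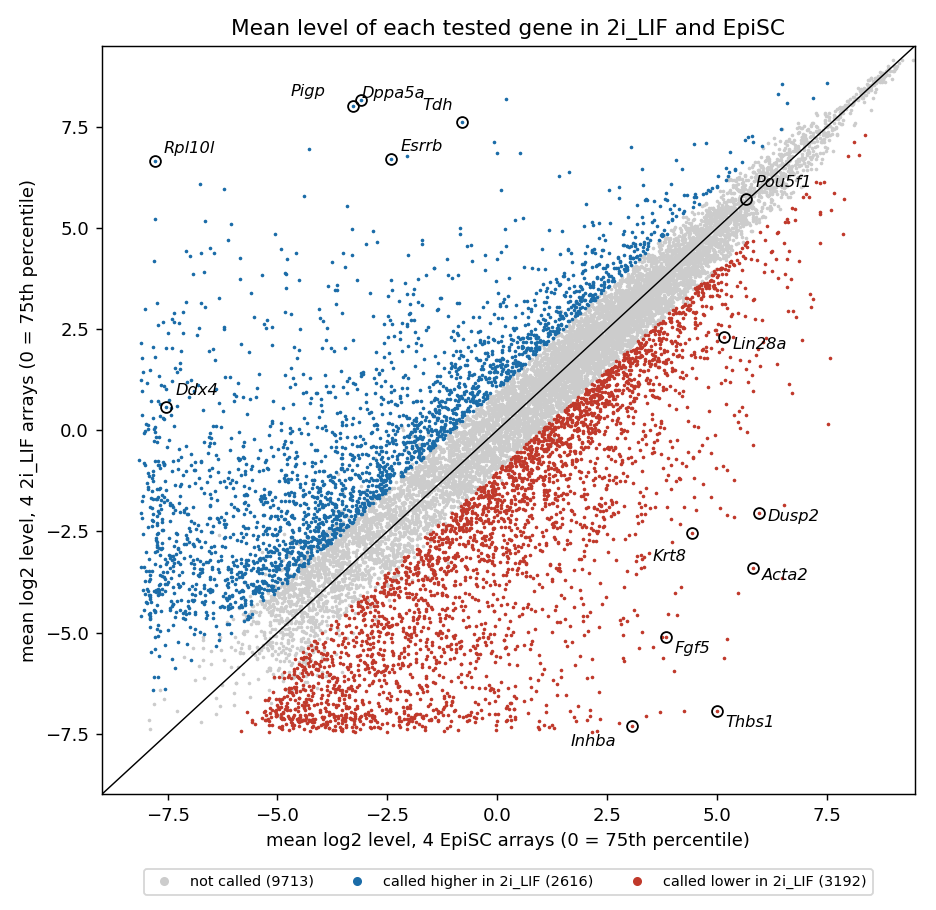
Mean log2 level of each of the 15521 tested genes on the 4 EpiSC arrays (x axis) and the 4 2i_LIF arrays (y axis); blue and red points are the 2616 genes called higher and the 3192 called lower in 2i_LIF. Dppa5a, Pigp, Esrrb and Tdh lie far above the diagonal, Dusp2, Acta2, Krt8 and Fgf5 far below it, and Pou5f1 on it.

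Among genes measured above background on all 8 arrays, the largest rises in 2i_LIF were Dppa5a, Pigp, Tuba3a, Tuba3b, Rhox2h, Esrrb, Fam25c, Phf11d, Zfp42, Gtsf1, Mageb16 and Tdh. Pigp, a subunit of the enzyme that starts the assembly of GPI anchors, read 8.28, 7.92, 7.87 and 8.62 in 2i_LIF and -3.05, -3.05, -2.96 and -3.38 in EpiSC. That difference of 11.28 (SE 0.17, adjusted p = 1.51e-15) was close to the one for Dppa5a. Zfp42 (Rex1), a zinc finger gene used to mark naive cells, differed by 8.81 (SE 0.33, adjusted p = 2.39e-11). Gtsf1, which acts in transposon silencing in the germ line, differed by 8.71 (SE 0.40, adjusted p = 1.75e-10), and Mageb16, an X-linked MAGE family gene, by 8.69 (SE 0.36, adjusted p = 7.1e-11). The Tuba3 probes may each measure several near-identical alpha-tubulin genes, as may the Rhox2h probe for its family.

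The largest falls measured on all 8 arrays were Acta2, Pkdcc, Lor, Dusp2, Col1a1, Tagln, Chst1, Fosb, Krt8, Scx, Kif1a and Aebp1. Pkdcc, a secreted kinase gene, read -1.29, -2.76, -0.25 and -3.12 in 2i_LIF and 6.68, 6.77, 6.60 and 6.05 in EpiSC, a difference of -8.38 (SE 0.60, adjusted p = 2.02e-08). Lor, which encodes the epidermal protein loricrin, differed by -8.03 (SE 0.40, adjusted p = 4.14e-10), Chst1, a sulfotransferase gene, by -7.31 (SE 0.40, adjusted p = 1.17e-09), and Scx, a tendon transcription factor gene, by -6.71 (SE 0.61, adjusted p = 2.57e-07). Acta2, Tagln and Col1a1, smooth muscle and fibroblast genes, are described with those lists below.

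Several genes were at background in one group. Rpl10l, a ribosomal protein gene used mainly in the testis, read 6.48, 6.73, 6.15 and 7.27 in 2i_LIF and stayed at background on every EpiSC array, which gives at least 5836-fold. The other largest bounds upward were Fthl17-ps1 (at least 3954-fold), Tcl1 (at least 3336-fold), Fthl17e (at least 2159-fold), Khdc3 (at least 2082-fold) and Triml2 (at least 1974-fold). Tcl1 encodes a cofactor of the kinase AKT, and Khdc3 belongs to a maternal protein complex of the oocyte. Fthl17e read 7.38, 6.78, 3.15 and 3.59 in 2i_LIF, and the Fthl17 probes may measure several copies of that X-linked ferritin-like family. Downward, Thbs1, a matrix glycoprotein gene, read 5.30, 4.56, 5.05 and 5.06 in EpiSC and was at background in 2i_LIF (at least 1247-fold). Next came Prss23 (at least 738-fold), Ccl7 (at least 508-fold), Il1rl1 (at least 406-fold), Inhba (at least 328-fold) and Cxcl1 (at least 267-fold).

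Naive pluripotency factors were higher in 2i_LIF almost throughout. Of 25 tested members, 23 were called higher in 2i_LIF, 0 lower and 2 not called, with a median difference of 4.79 (5.13 on slide 2 alone). Esrrb, an orphan nuclear receptor at the centre of the naive network, read 6.51, 6.87, 6.71 and 6.72 in 2i_LIF and -2.14, -2.41, -2.58 and -2.50 in EpiSC. Its arrays did not overlap, and it differed by 9.11 (SE 0.19, adjusted p = 4.6e-14). Prdm14, which represses FGF receptor and DNA methyltransferase genes, read 3.97, 4.39, 3.51 and 3.74 in 2i_LIF and -7.85, -6.13, -6.60 and -6.14 in EpiSC. The difference was 10.59 (SE 0.33, adjusted p = 3.54e-12), and the probe was well above background on 1 of 4 EpiSC arrays. The nuclear receptor genes Nr5a2 and Nr0b1 differed by 7.64 and 6.36, the T-box factor gene Tbx3 by 4.79, and Dppa3 (Stella) by at least 428-fold.

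Within that list the size of the difference varied widely. Nanog, shared by both states but more abundant in naive cells, read 4.83, 4.88, 4.10 and 4.13 in 2i_LIF and 2.08, 2.40, 1.82 and 2.49 in EpiSC, a difference of 2.29 (SE 0.24, adjusted p = 1.15e-06). Klf5 and Klf2, zinc finger factors of the same network, differed by 1.95 (SE 0.26, adjusted p = 1.39e-05) and 1.0 (SE 0.25, adjusted p = 0.00347). The Klf2 value lay at the 2-fold threshold and was under it with the slide as a block (0.89), with passage number in the fit (0.97) and without 2i_LIF array 4 (0.89) or EpiSC array 1 (0.92), 2 (1.0) or 3 (0.90). Klf4, their relative and a STAT3 target, read 4.74, 4.59, 4.07 and 3.60 in 2i_LIF and 3.80, 3.79, 3.84 and 4.18 in EpiSC. These arrays overlapped and the difference of 0.35 (SE 0.28, adjusted p = 0.307) was not called. Gbx2, another STAT3 target, gave -1.02 (SE 0.93, adjusted p = 0.366) and was not called either, but was called with the slide as a block (-2.74) and on slide 2 alone (-2.37).

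The core pluripotency factors were split. Of 17 tested members, 5 (29.4%) were called higher in 2i_LIF, 2 (11.8%) lower and 10 not called, beside 16.9% and 20.6% of all genes tested. The median difference was 0.17 (0.19 on slide 2 alone). Pou5f1 read 5.87, 5.92, 5.80 and 5.25 in 2i_LIF and 5.67, 5.75, 5.64 and 5.60 in EpiSC. The ranges overlapped, the difference was 0.04 (SE 0.16, adjusted p = 0.844), and its 95% confidence interval ran from -0.31 to 0.39. On slide 2 alone it was -0.42, still under 2-fold. Sox2 read 4.28, 4.17, 3.88 and 4.14 in 2i_LIF and 2.49, 2.21, 2.17 and 2.40 in EpiSC, higher on every 2i_LIF array, with a difference of 1.80 (SE 0.16, adjusted p = 1.84e-07). Dppa2, whose product opens bivalent promoters together with Dppa4, read 2.85, 3.25, 2.53 and 2.86 in 2i_LIF and -4.94, -4.31, -4.15 and -5.39 in EpiSC, a difference of 7.57 (SE 0.38, adjusted p = 4.93e-10). Dppa4 was higher by at least 329-fold. Zfp281 and the Nodal co-receptor gene Tdgf1 (Cripto) differed by -0.51 and 0.36 and were not called.

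Lin28a and Lin28b, RNA-binding proteins that block the maturation of let-7 microRNAs, were the core list members higher in EpiSC. Lin28a read 1.67, 2.53, 2.63 and 2.44 in 2i_LIF and 5.17, 5.30, 5.13 and 5.01 in EpiSC, without overlap, a difference of -2.84 (SE 0.23, adjusted p = 6.49e-08). Lin28b differed by -2.97 (SE 0.23, adjusted p = 5.89e-08). Against LIF_serum the 2i_LIF levels were also lower, at -2.43 for Lin28a (adjusted p = 3.91e-06, limma) and -1.57 for Lin28b (adjusted p = 2.16e-04, limma).

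Primed epiblast factors were mostly higher in EpiSC. Of 19 tested members, 3 were called higher in 2i_LIF, 13 lower and 3 not called, with a median difference of -2.55 (-3.16 on slide 2 alone). Pou3f1 (Oct6), a POU factor of the post-implantation epiblast, read -1.35, -0.91, -0.16 and -1.33 in 2i_LIF and 4.84, 5.23, 5.16 and 4.65 in EpiSC, a difference of -5.91 (SE 0.27, adjusted p = 1.77e-10). Its mean in LIF_serum was 2.31, between the other groups. The SoxC factors Sox11 and Sox4 differed by -6.76 (detected on 3 of 4 2i_LIF arrays) and -4.09, Sall2 by -4.53 and Sox3 by -2.04 (SE 0.53, adjusted p = 0.00456). One 2i_LIF array overlapped the EpiSC range of Sox3. Cdh2 (N-cadherin) read -0.18, 0.11, -0.84 and -2.31 in 2i_LIF and 4.65, 4.02, 4.05 and 4.10 in EpiSC, a difference of -5.01 (SE 0.53, adjusted p = 1.38e-06).

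Other members of the primed list went the other way. Otx2, a homeobox factor that acts with Oct4 in the transition to the primed state, read 5.02, 4.66, 4.44 and 5.06 in 2i_LIF and 4.33, 3.22, 3.51 and 4.14 in EpiSC. Every 2i_LIF array was above every EpiSC array, and the difference of 0.99 (SE 0.36, adjusted p = 0.0296) was just under 2-fold. With the slide as a block it was 1.6 and on slide 2 alone 1.25, both called. Tfap2c, an AP-2 factor that opens naive enhancers and also serves germ cells, read 4.67, 4.71, 3.69 and 4.54 in 2i_LIF and -0.10, 0.27, -0.18 and 0.30 in EpiSC, a difference of 4.33 (SE 0.29, adjusted p = 9.49e-09). Sall1 and Tcf15 were also called higher in 2i_LIF, by 1.48 and 1.23. Tcf15 was not called with the slide as a block (0.54), on slide 2 alone (0.92) or without 2i_LIF array 1 (1.05).

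**Figure D3:**
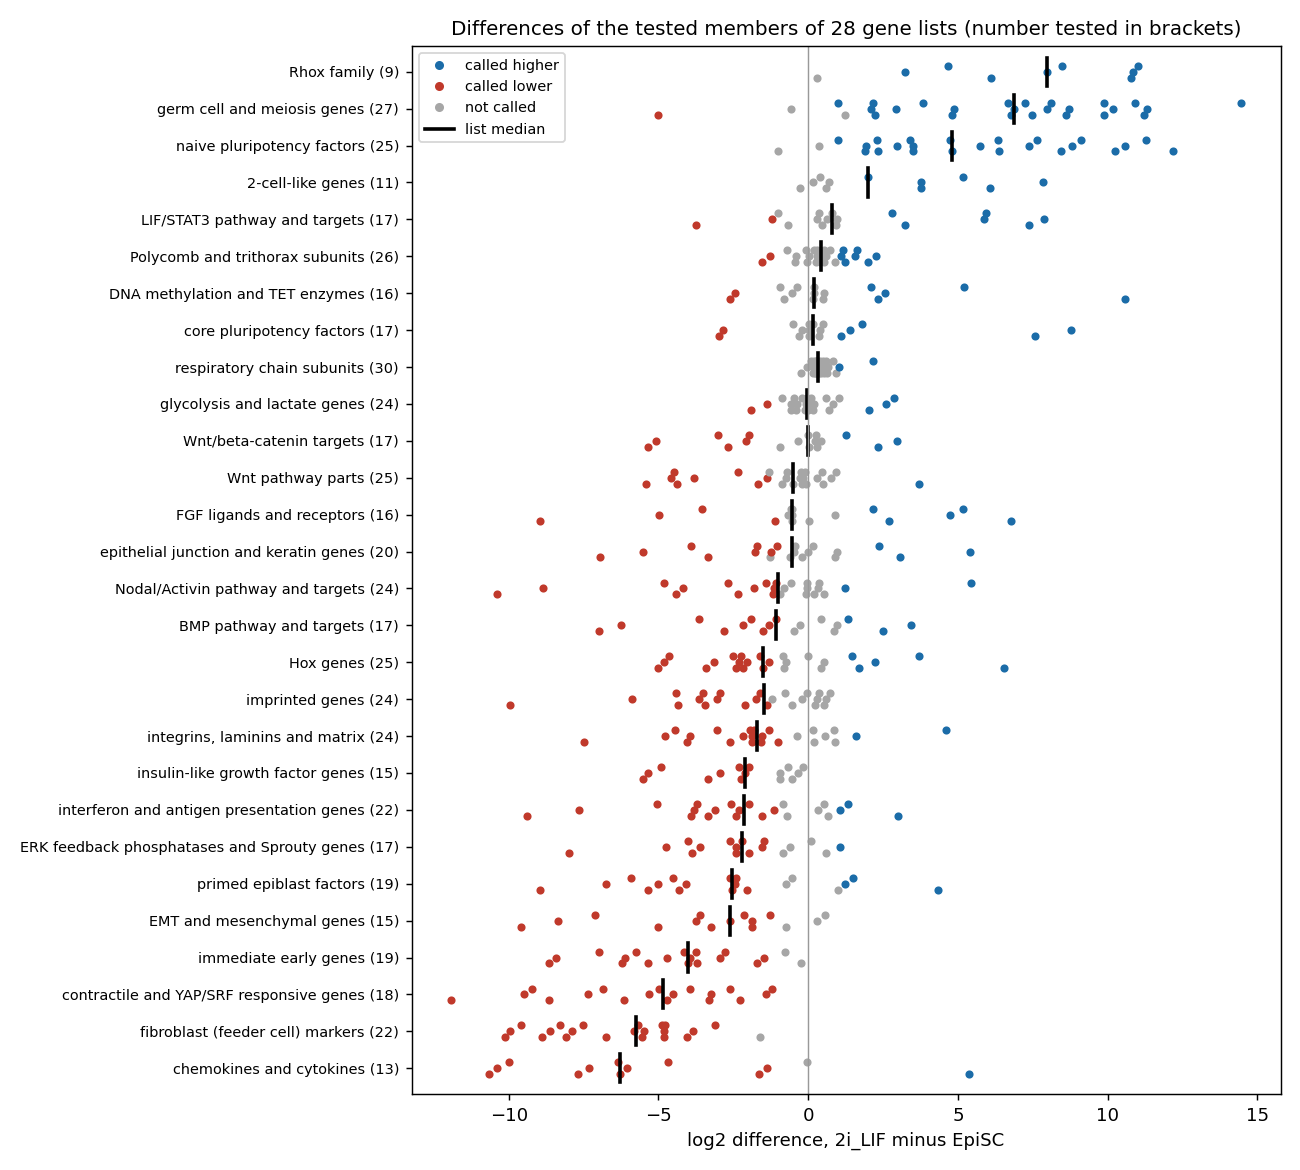
Log2 difference between 2i_LIF and EpiSC (x axis) of each tested member of 28 gene lists (y axis, number tested in brackets); blue and red points were called higher and lower, grey points were not called, and black bars are list medians. The Rhox, germ cell and naive lists have medians of 7.99, 6.89 and 4.79, and the chemokine, fibroblast and contractile lists medians of -6.28, -5.75 and -4.85.

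ERK feedback genes, measured here as RNA only, were mostly lower in 2i_LIF than in EpiSC, with exceptions among the ETS factors. Of 17 tested members, 1 was called higher in 2i_LIF, 12 lower and 4 not called, with a median difference of -2.22 (-2.18 on slide 2 alone). Dusp6, the phosphatase that dephosphorylates ERK itself, read 1.76, 2.69, 2.28 and 1.97 in 2i_LIF and 6.33, 5.95, 5.85 and 6.05 in EpiSC, a difference of -3.87 (SE 0.39, adjusted p = 8.86e-07). Dusp5 and Dusp4 differed by -4.73 (detected on 3 of 4 2i_LIF arrays) and -2.60, and the ERK pathway inhibitors Spry4, Spred1 and Spry2 by -3.61 (detected on 3 of 4 2i_LIF arrays), -2.22 and -1.99. Etv5, an ETS factor that FGF signals induce in many tissues, read 6.36, 6.68, 6.76 and 6.77 in 2i_LIF and 5.67, 5.52, 5.54 and 5.53 in EpiSC. It was higher on every 2i_LIF array, by 1.08 (SE 0.20, adjusted p = 3.3e-04), and 0.95 with passage number in the fit, then under 2-fold. Its relative Etv4 gave 0.61 (SE 0.34, adjusted p = 0.144), with overlapping arrays and no call, and Etv1 fell by 2.42 on the log2 scale. Between 2i_LIF and LIF_serum the list differed less, with 0 members called higher and 3 lower in 2i_LIF and a median of -0.40. In that comparison Dusp6 gave -0.37 and was not called.

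Immediate early genes showed the same direction. Of 19 tested members, 0 were called higher in 2i_LIF, 17 lower and 2 not called, with a median difference of -4.01 (-4.20 on slide 2 alone). Egr1, a zinc finger factor induced within minutes of ERK activation, read 2.37, 3.66, 2.54 and 2.61 in 2i_LIF and 6.70, 6.86, 6.57 and 7.08 in EpiSC, a difference of -4.01 (SE 0.41, adjusted p = 9.6e-07). No arrays overlapped. The AP-1 subunit genes Fosb, Fosl2, Fosl1, Jun, Fos and Junb differed by -6.99, -8.43 (detected on 3 of 4 2i_LIF arrays), -5.75 (detected on 3 of 4 2i_LIF arrays), -4.73, -4.14 and -3.75. The uncalled members were Klf10 (-0.25) and Ier2 (-0.79, or -1.07 and called with the slide as a block). Between 2i_LIF and LIF_serum 0 members were called higher and 10 lower in 2i_LIF, with a median of -1.62. Egr1 gave -0.67 there and was not called.

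The ligands and receptors of the FGF pathway had no common direction. Of 16 tested members (of 17 listed), 5 were called higher in 2i_LIF, 4 lower and 7 not called, with a median difference of -0.54 (-0.56 on slide 2 alone). Fgf4, the autocrine ligand of naive cells, read 6.44, 6.05, 6.28 and 6.77 in 2i_LIF and 1.31, 1.73, 1.59 and 1.92 in EpiSC, a difference of 4.74 (SE 0.18, adjusted p = 1.95e-11). The ligand genes Fgf8 and Fgf15 were lower, by -4.97 and -3.55, as was Fgf5. Fgfr1, the main receptor of the epiblast, read 3.80, 4.04, 4.03 and 4.13 in 2i_LIF and 5.13, 5.18, 5.20 and 4.95 in EpiSC. The difference of -1.12 (SE 0.12, adjusted p = 1.89e-06) was under 2-fold with the slide as a block (-0.99), on slide 2 alone (-0.99), with median centring (-0.91) and as a mean of its probes (-0.74). The receptor gene Fgfr4 and Klb, a co-receptor for endocrine FGFs, were higher, by 2.70 and at least 41.9-fold.

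Targets of Wnt/beta-catenin signalling, which GSK3 inhibition activates, had no common direction. Of 17 tested members (of 20 listed), 3 (17.6%) were called higher in 2i_LIF, 6 (35.3%) lower and 8 not called. All genes tested gave 16.9% and 20.6%, so the share called higher was near that of all genes. The median difference was 0.00 (-0.74 on slide 2 alone). With the slide as a block the median was -0.84. Cdx1, a homeobox target gene, read -3.12, -1.78, -2.20 and -2.34 in 2i_LIF and -5.12, -5.02, -5.41 and -5.77 in EpiSC, a difference of 2.97 (SE 0.55, adjusted p = 3.09e-04). Notum, which encodes an extracellular Wnt inhibitor, was higher by 2.32 (SE 0.28, adjusted p = 5.95e-06). Axin2, the feedback inhibitor widely used to report on the pathway, read -3.34, -2.44, -2.11 and -2.89 in 2i_LIF and -3.10, -4.67, -3.75 and -4.27 in EpiSC. Array 1 of 2i_LIF lay below array 1 of EpiSC, and the difference of 1.26 (SE 0.47, adjusted p = 0.0335) was not called with the slide as a block (0.62, adjusted p = 0.314, limma) or on slide 2 alone (1.06, adjusted p = 0.142, limma). It was under 2-fold with quantile normalization (0.81), normexp (0.70), the authors' deposited values (0.69) and passage number in the fit (0.96). It also lost the call without any one of 2i_LIF arrays 2 and 3 and EpiSC arrays 2 and 4 (1.17, 1.06, 1.02 and 1.15). Mean levels in LIF_serum were -1.02 for Cdx1 and -2.18 for Axin2, beside -2.36 and -2.69 in 2i_LIF, and neither difference was called. Of the list, 1 member was called higher and 6 lower in 2i_LIF than in LIF_serum, where all genes gave 6.26% and 12.1%.

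Other Wnt targets were higher in EpiSC. T (Brachyury), the factor that marks the primitive streak, read -5.58, -4.68, -6.20 and -5.70 in 2i_LIF and 1.33, -1.37, -0.92 and -0.90 in EpiSC, a difference of -5.08 (SE 0.72, adjusted p = 2.54e-05, detected on 1 of 4 2i_LIF arrays). Lef1, a beta-catenin partner, was lower, at -1.99 (SE 0.49, adjusted p = 0.00286), and the inhibitor gene Nkd1 at -2.07. The stem cell receptor gene Lgr5 was higher in EpiSC by at least 12.1-fold. Among the pathway's own parts, 1 of 25 tested members was called higher in 2i_LIF, 8 lower and 16 not called, with a median difference of -0.52 (-0.31 on slide 2 alone). The ligand gene Wnt3, required for the streak, read -6.23, -5.02, -6.70 and -4.66 in 2i_LIF and -0.07, -1.33, -1.24 and -1.63 in EpiSC, a difference of -4.58 (SE 0.60, adjusted p = 1.17e-05, detected on 2 of 4 2i_LIF arrays). Wnt8a was at background in 2i_LIF (at least 16.9-fold), while the ligand gene Wnt6 was higher in 2i_LIF by 3.71 (SE 0.40, adjusted p = 1.81e-06, detected on 3 of 4 EpiSC arrays). Tcf7l1, the repressor relieved by GSK3 inhibition, gave -0.87 (SE 0.26, adjusted p = 0.0113), under 2-fold, and was called at -1.31 on slide 2 alone and at -1.09 without 2i_LIF array 2.

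Most Nodal/Activin genes that were called were lower in 2i_LIF, while the ligand Nodal itself was not called. Of 24 tested members, 2 were called higher in 2i_LIF, 12 lower and 10 not called, with a median difference of -1.01 (-0.77 on slide 2 alone). Nodal read 3.67, 4.25, 3.74 and 4.26 in 2i_LIF and 4.47, 4.70, 4.41 and 4.59 in EpiSC. Every EpiSC array was above every 2i_LIF array, but the difference of -0.56 (SE 0.26, adjusted p = 0.0851) was not called. Lefty2, a feedback inhibitor that Nodal induces, read 4.29, 3.72, 3.22 and 5.72 in 2i_LIF and 6.5, 6.53, 6.49 and 6.82 in EpiSC. The difference was -2.35 (SE 0.55, adjusted p = 0.00221). On slide 2, where 2i_LIF array 4 is the highest of its group, it was -0.87 and under 2-fold. Lefty1 was lower, at -2.68, and Cer1, a secreted Nodal and Wnt inhibitor, was higher in EpiSC by at least 132-fold.

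Lefty1 and Lefty2 were well above the floor in 2i_LIF. With SB431542 added, Lefty2 had a mean of -1.90 in 2iSB_LIF, lower than in 2i_LIF by 6.13 on the log2 scale (adjusted p = 1.31e-04, limma), and Lefty1 differed by 8.88 (adjusted p = 2.9e-07, limma) in the same comparison. Inhba, which encodes the Activin A subunit, read 3.24, 2.85, 3.65 and 2.53 in EpiSC and was at background on all 2i_LIF arrays (at least 328-fold). On LIF_serum arrays 1 to 4 Inhba read 1.86, 1.29, -3.22 and -3.05. Fibroblast markers, described below, were also higher on LIF_serum arrays 1 and 2, and their relation to the Inhba levels was not tested. Pcsk6, a convertase that activates pro-Nodal, read 3.82, 4.30, 4.06 and 3.90 in 2i_LIF and -1.23, -1.50, -1.55 and -1.45 in EpiSC, a difference of 5.45 (SE 0.17, adjusted p = 3.36e-12) in the opposite direction. Gdf3, a Nodal-related ligand gene, was also higher in 2i_LIF, by 1.24 (SE 0.24, adjusted p = 4.39e-04).

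BMP genes leaned to EpiSC. Of 17 tested members (of 18 listed), 3 were called higher in 2i_LIF, 9 lower and 5 not called, with a median difference of -1.08 (-1.45 on slide 2 alone). Id1, a helix-loop-helix inhibitor that BMP and SMAD1/5 induce, read -2.30, -1.33, -0.19 and -1.0 in 2i_LIF and 1.72, 1.54, 1.19 and 1.94 in EpiSC, a difference of -2.80 (SE 0.54, adjusted p = 4.68e-04). Id2 was lower, at -3.66 (SE 0.59, adjusted p = 8.87e-05). Id3 was lower, at -2.18 (SE 0.75, adjusted p = 0.023), with 2i_LIF array 2 inside the EpiSC range, and lost its call without 2i_LIF array 3 (-1.89), 2i_LIF array 4 (-1.71) or EpiSC array 1 (-1.95). The ligand gene Bmp2 and the antagonist gene Grem1 were lower, at -6.26 (detected on 1 of 4 2i_LIF arrays) and -6.98 (detected on 1 of 4 2i_LIF arrays), and Smad9 and Id4 were higher by at least 2.92-fold and 2.48 (SE 0.35, adjusted p = 2.51e-05). Smad9 was under 2-fold with normexp (0.59).

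LIF/STAT3 genes were higher in 2i_LIF for the receptor and some targets. Of 17 tested members, 6 were called higher in 2i_LIF, 2 lower and 9 not called, with a median difference of 0.80 (0.77 on slide 2 alone). Lifr, the LIF receptor gene, read 1.66, 2.59, 2.71 and 2.43 in 2i_LIF and -0.39, -1.0, -1.02 and -1.14 in EpiSC, a difference of 3.23 (SE 0.28, adjusted p = 1.4e-07). Its partner Il6st (gp130) gave 0.93 (SE 0.19, adjusted p = 6.39e-04), under 2-fold (1.03 and called with the slide as a block), and Stat3 itself 0.30 (SE 0.16, adjusted p = 0.125), not called. The feedback inhibitor gene Socs3 read 4.84, 4.81, 5.16 and 5.04 in 2i_LIF and 4.08, 4.03, 3.89 and 4.06 in EpiSC. It was higher on every 2i_LIF array, by 0.95 (SE 0.12, adjusted p = 1.25e-05), just under 2-fold, and was called with median centring (1.16), with normexp (1.08), in the authors' deposited values (1.13) and on slide 2 alone (1.03). Larger differences were found for the co-regulator gene Bcl3 (2.80) and Pramel7 (at least 18.4-fold). Cish and Junb were lower, at -1.19 and -3.75. Cish was under 2-fold with median centring (-0.99), with the slide as a block (-0.90) and on slide 2 alone (-0.51).

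**Figure D4:**
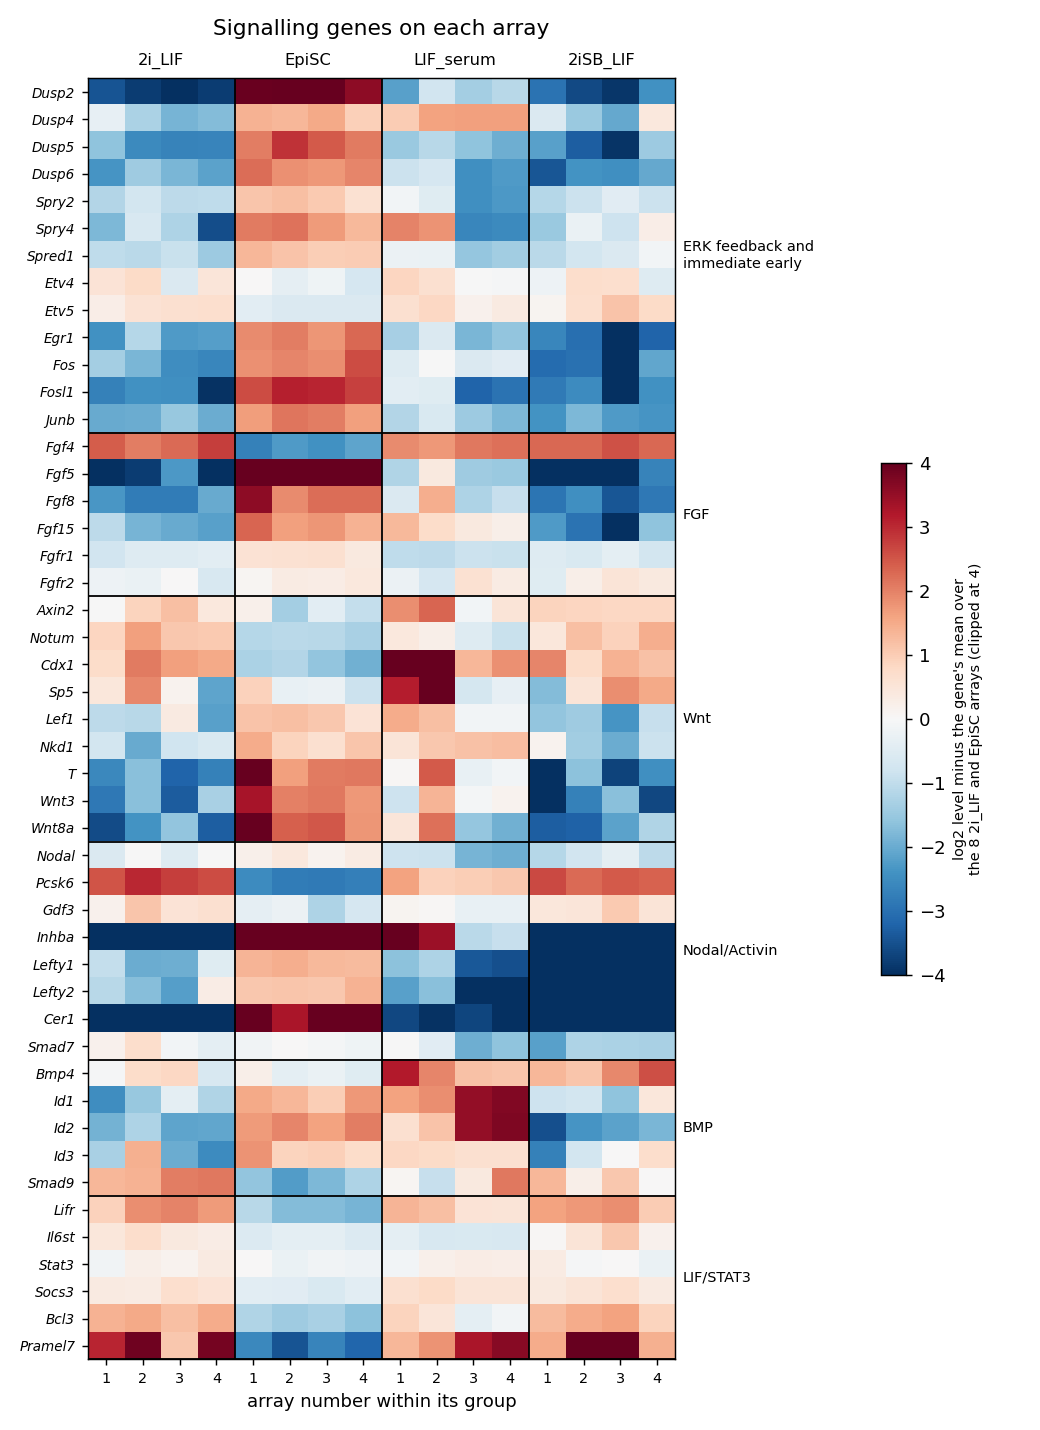
Log2 level of 47 signalling genes (rows, grouped by pathway) on each of the 16 arrays (columns), relative to the gene's mean over the 8 2i_LIF and EpiSC arrays, with colours clipped at 4. Dusp2, Dusp6, Egr1, Fgf5, Inhba and Cer1 are blue in 2i_LIF and red in EpiSC, while Fgf4, Pcsk6 and Lifr show the reverse.

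Genes of DNA methylation changed in opposite directions. Of 16 tested members, 5 (31.25%) were called higher in 2i_LIF, 2 (12.5%) lower and 9 not called. All genes tested gave 16.9% and 20.6%. The median difference was 0.19 (0.52 on slide 2 alone). Members called higher included Prdm14, a regulator also described with the naive factors. Dnmt3b, a de novo methyltransferase, read 3.81, 4.32, 4.16 and 2.77 in 2i_LIF and 6.61, 6.27, 6.55 and 6.13 in EpiSC, without overlap, a difference of -2.63 (SE 0.40, adjusted p = 5.62e-05). Its mean in LIF_serum was 6.80, higher than in 2i_LIF by 3.04 on the log2 scale (adjusted p = 8.29e-05, limma). Dnmt3a was lower in 2i_LIF than in EpiSC, at -2.43 (SE 0.25, adjusted p = 9.56e-07). Dnmt3l, their catalytically inactive partner, read 2.53, 2.83, 2.88 and 2.29 in 2i_LIF and -2.58, -2.47, -2.50 and -2.71 in EpiSC, a difference of 5.20 (SE 0.16, adjusted p = 3.56e-12). Its mean in LIF_serum was 5.93, higher than in 2i_LIF by 3.30 on the log2 scale (adjusted p = 1.91e-08, limma). Tet1, which oxidises 5-methylcytosine, read 5.22, 5.14, 5.57 and 4.60 in 2i_LIF and 2.57, 2.65, 2.51 and 2.55 in EpiSC, a difference of 2.56 (SE 0.32, adjusted p = 6.6e-06), and Tet2 was higher by 2.10 (SE 0.25, adjusted p = 5.26e-06). The maintenance genes Dnmt1 and Uhrf1 differed by 0.18 and 0.15 and were not called. The median of this list moved with single arrays, from 0.07 without 2i_LIF array 4 to 0.29 without array 2.

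Polycomb and trithorax subunit genes were called about as often as all genes (37.4%). Of 26 tested members (of 27 listed), 7 were called higher in 2i_LIF, 2 lower and 17 not called, with a median difference of 0.41 (0.37 on slide 2 alone). Ezh2, the main H3K27 methyltransferase, gave 0.27 (SE 0.12, adjusted p = 0.0734), not called. Cbx7, Phf19 and Mtf2, subunits or partners of the complexes, were higher by 2.27, 1.99 and 1.63, and the demethylase gene Kdm6b was lower, at -1.53. Cbx7 was not called with the slide as a block (0.76) or on slide 2 alone (0.34).

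Genes of the germ line were among the largest differences. Of 27 tested members (of 30 listed), 24 were called higher in 2i_LIF, 1 lower and 2 not called, with a median difference of 6.89 (6.94 on slide 2 alone). With the 12 members at background in one group set at their bounds, the median was 5.61. Ddx4 (Vasa), an RNA helicase of germ cells, read 0.39, -0.11, 0.90 and 1.1 in 2i_LIF and was at background in EpiSC (at least 85.6-fold). Sycp3, a protein of the synaptonemal complex, read 2.64, 1.14, 2.15 and 2.66 in 2i_LIF and -6.03, -5.31, -6.11 and -5.83 in EpiSC, a difference of 7.97 (SE 0.31, adjusted p = 3.1e-11). It was well above background on 2 of 4 EpiSC arrays. Hormad1, a meiotic chromosome axis gene, read 2.67, 2.23, 1.14 and 2.17 in 2i_LIF and was at background in EpiSC (at least 239-fold). Dazl, Mael and Slc25a31 were higher by at least 304-fold, 390.1-fold and 49-fold. Tex19.1, a placental and germ line gene, was measured in both groups and differed by 4.88 (SE 0.25, adjusted p = 5.82e-10).

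Tdrkh, a Tudor protein gene of the piRNA pathway, was the one list member lower in 2i_LIF. It read -4.45, -5.75, -4.26 and -2.96 in 2i_LIF and 0.60, 0.83, 0.59 and 0.65 in EpiSC, a difference of -5.02 (SE 0.47, adjusted p = 3.4e-07, detected on 3 of 4 2i_LIF arrays). Against LIF_serum the germ cell list was mixed: 5 members were called higher and 5 lower in 2i_LIF. Dazl was higher in 2i_LIF than in LIF_serum by 3.04 (adjusted p = 3.47e-04, limma) and Sycp3 lower, at -1.65 (adjusted p = 0.00116, limma).

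The promoters of this list are shown because many of its members share a motif, which had the highest share among the 304 pairs of 38 lists and 8 motifs searched. The sequence CACGTG, the palindromic E-box that reads the same on both strands, was found in 14 of 29 promoters (48.3%) of the 25 matched members. The share was 9.42% among the 15500 promoters of the genes tested and 7.15% among all 32851 promoters in the RefSeq table, each from 250 bases before to 50 after the start. Of the 27 tested members 2 had no entry. Promoters of 4 genes described above are given 5′ to 3′ on the strand of the gene (RefSeq, GRCm38.p6), with the E-box in capitals.
Ddx4 (chr13:112652261-112652560, reverse strand): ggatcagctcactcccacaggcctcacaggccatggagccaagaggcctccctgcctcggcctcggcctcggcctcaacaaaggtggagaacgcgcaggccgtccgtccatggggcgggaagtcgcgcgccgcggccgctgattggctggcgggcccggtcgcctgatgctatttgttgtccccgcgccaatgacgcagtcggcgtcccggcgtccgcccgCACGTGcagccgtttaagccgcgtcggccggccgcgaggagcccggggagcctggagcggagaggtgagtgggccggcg
Sycp3 (chr10:88459337-88459636, forward strand): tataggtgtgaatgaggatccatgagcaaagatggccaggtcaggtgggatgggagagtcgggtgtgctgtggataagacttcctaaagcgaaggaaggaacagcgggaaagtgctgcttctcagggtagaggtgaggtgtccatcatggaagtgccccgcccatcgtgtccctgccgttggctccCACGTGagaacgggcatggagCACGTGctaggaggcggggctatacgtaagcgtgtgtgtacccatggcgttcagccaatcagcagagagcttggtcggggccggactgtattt
Hormad1 (chr3:95559427-95559726, forward strand): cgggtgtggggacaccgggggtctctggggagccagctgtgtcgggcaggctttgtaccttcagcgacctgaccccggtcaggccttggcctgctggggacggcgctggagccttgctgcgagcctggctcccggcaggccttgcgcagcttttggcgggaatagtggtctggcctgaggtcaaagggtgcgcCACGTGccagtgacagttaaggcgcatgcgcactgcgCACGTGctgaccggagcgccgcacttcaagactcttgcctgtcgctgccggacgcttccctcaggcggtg
Slc25a31 (chr3:40708621-40708920, forward strand): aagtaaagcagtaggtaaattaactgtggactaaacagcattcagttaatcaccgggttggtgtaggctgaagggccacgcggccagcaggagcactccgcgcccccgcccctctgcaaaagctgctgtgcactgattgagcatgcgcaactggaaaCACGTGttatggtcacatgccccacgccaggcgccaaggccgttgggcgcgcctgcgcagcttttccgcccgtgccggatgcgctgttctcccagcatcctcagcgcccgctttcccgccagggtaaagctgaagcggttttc
Ddx4 and Slc25a31 held 1 E-box each, and Sycp3 and Hormad1 held 2. They began 29 bases before the start in Ddx4, 64 and 43 before it in Sycp3, 57 and 20 in Hormad1 and 93 in Slc25a31. A match is a description of the letters and does not show that a factor binds. The AP-1 sequence TGANTCA, searched on both strands, was in 13.8% of the germ cell promoters and in 5.55% of those of genes tested.

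The X-linked Rhox homeobox cluster followed the germ cell genes. Of 9 tested members (of 13 listed), 8 were called higher in 2i_LIF, 0 lower and 1 not called, with a median difference of 7.99 (8.06 on slide 2 alone). Rhox5, a gene of the reproductive tract and placenta, read 8.57, 8.35, 7.53 and 8.26 in 2i_LIF and 0.18, 0.45, 0.12 and 0.01 in EpiSC, a difference of 7.99 (SE 0.30, adjusted p = 1.98e-11). Rhox6 read 5.17, 4.57, 2.75 and 2.91 in 2i_LIF and -7.79, -5.86, -6.77 and -7.28 in EpiSC, a difference of 10.78 (SE 0.79, adjusted p = 2.75e-08, detected on 1 of 4 EpiSC arrays). In 2i_LIF, arrays 1 and 2 were higher than arrays 3 and 4 for Rhox6, and the same arrays led for Rhox9 (5.76, 5.37, 3.45 and 4.23). The probes may measure several near-identical members, and Rhox8 gave 0.28 (SE 0.24, adjusted p = 0.329), not called, with levels above 6 in both groups.

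The genes of 2-cell-like cells, rare cells in naive cultures that resemble the 2-cell embryo, were detected in 2i_LIF. Of 11 tested members (of 15 listed), 6 were called higher in 2i_LIF, 0 lower and 5 not called, with a median difference of 2.0 (0.88 on slide 2 alone). Zscan4f read -0.40, -1.44, 2.16 and -0.18 in 2i_LIF, highest on array 3, and was at background on all EpiSC arrays (at least 59.2-fold). The Zscan4 probes may measure several copies of that family. The mean in LIF_serum was 4.40, higher than in 2i_LIF by 4.37 on the log2 scale (adjusted p = 0.00259, limma).

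In each metabolic gene list most members were not called, as was so for all genes tested (37.4% called). Among threonine, serine and one-carbon enzymes 4 of 19 tested members were called higher in 2i_LIF, 2 lower and 13 not called, with a median difference of 0.08 (0.32 on slide 2 alone). Tdh, which starts the breakdown of threonine in mouse naive cells, read 7.27, 8.0, 7.42 and 7.80 in 2i_LIF and -0.33, -1.02, -1.02 and -0.88 in EpiSC, a difference of 8.43 (SE 0.37, adjusted p = 1.08e-10). Gcat, the next enzyme of that route, read 4.51, 4.58, 4.56 and 5.35 in 2i_LIF and 2.45, 2.21, 2.27 and 2.34 in EpiSC, a difference of 2.43 (SE 0.20, adjusted p = 6.89e-08). The glycine cleavage gene Amt was higher by 1.52 (SE 0.13, adjusted p = 1.32e-07), while Phgdh, the first step of serine synthesis, gave -0.93 (SE 0.16, adjusted p = 1.85e-04), under 2-fold and called without 2i_LIF array 1 (-1.05) and on slide 2 alone (-1.0). For glycolysis 3 of 24 tested members were called higher in 2i_LIF, 2 lower and 19 not called, with a median difference of -0.03 (0.17 on slide 2 alone), with Pfkp, Ldhb and Hk1 higher by 2.87, 2.60 and 2.04. For respiratory chain subunits 2 of 30 tested members were called higher in 2i_LIF, 0 lower and 28 not called, with a median difference of 0.33 (0.60 on slide 2 alone), with Cox7a1 higher by 2.16 (SE 0.38, adjusted p = 2.51e-04). For sterol and fatty acid synthesis 3 of 29 tested members were called higher in 2i_LIF, 1 lower and 25 not called, with a median difference of 0.17 (0.47 on slide 2 alone), with the desaturase gene Scd1 higher by 2.06 (SE 0.32, adjusted p = 5.61e-05).

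Cell cycle genes showed large differences in single members. Among G1 cyclins, CDK inhibitors and p53 targets 3 of 19 tested members were called higher in 2i_LIF, 3 lower and 13 not called, with a median difference of -0.01 (0.28 on slide 2 alone). Ccnd2 (cyclin D2) read -4.52, -3.48, -3.56 and -6.66 in 2i_LIF and 3.60, 2.97, 3.30 and 2.88 in EpiSC, a difference of -7.74 (SE 0.71, adjusted p = 3.03e-07, detected on 3 of 4 2i_LIF arrays). Cdk6, its kinase partner, was lower, at -4.37 (SE 0.45, adjusted p = 1.58e-06, detected on 2 of 4 2i_LIF arrays), while Ccnd1 gave -0.35 (SE 0.25, adjusted p = 0.249), not called. Cdkn2a, which encodes the inhibitors p16 and p19ARF, read 3.92, 3.58, 3.58 and 4.02 in 2i_LIF and 2.56, 1.38, 2.39 and 1.53 in EpiSC, a difference of 1.81 (SE 0.23, adjusted p = 9.97e-06). Myc, a growth regulator that 2i is known to lower, read -4.32, -1.26, -2.90 and -5.24 in 2i_LIF and 2.36, 1.86, 1.94 and 1.58 in EpiSC, a difference of -5.36 (SE 1.0, adjusted p = 3.35e-04, detected on 3 of 4 2i_LIF arrays). Mycn gave 0.45 (SE 0.36, adjusted p = 0.296), not called, and among Myc family and ribosome biogenesis genes 2 of 20 tested members were called higher in 2i_LIF, 1 lower and 17 not called, with a median difference of 0.06 (0.30 on slide 2 alone).

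Markers of early lineages were not uniform. For primitive streak and mesendoderm 4 of 16 tested members were called higher in 2i_LIF, 7 lower and 5 not called, with a median difference of -0.54 (-0.77 on slide 2 alone). Foxa2, a factor of the anterior streak and endoderm, read -5.43, -3.26, -7.15 and -4.98 in 2i_LIF and 2.77, -0.54, 0.45 and 0.48 in EpiSC, a difference of -5.99 (SE 0.94, adjusted p = 7.31e-05, detected on 1 of 4 2i_LIF arrays). EpiSC array 1 was the highest for Foxa2, T, Cer1 and Wnt3. Gsc (goosecoid), a gene of the same region, read 1.66, 1.85, 0.91 and 2.02 in 2i_LIF and 1.94, -0.90, -0.43 and 0.21 in EpiSC. These arrays overlapped, and the difference of 1.41 (SE 0.51, adjusted p = 0.0301) was not called on slide 2 alone (1.82, adjusted p = 0.139, limma). Its call was also lost with passage number in the fit (1.11, adjusted p = 0.105, limma), with only the 8 arrays fitted (adjusted p = 0.0602, limma) and without any one of 2i_LIF arrays 1, 2 and 4 (1.39, 1.32 and 1.27) and EpiSC arrays 2, 3 and 4 (1.04, 1.19 and 1.41). Its mean in LIF_serum was -2.20.

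For primitive endoderm 2 of 16 tested members were called higher in 2i_LIF, 9 lower and 5 not called, with a median difference of -2.08 (-2.39 on slide 2 alone). Gata6, its founding factor, read -1.80, -3.43, -4.70 and -3.90 in 2i_LIF and 0.21, -2.0, -1.39 and -1.02 in EpiSC. The ranges overlapped, and the difference of -2.41 (SE 0.83, adjusted p = 0.0226) was not called with the slide as a block (-1.22, adjusted p = 0.253, limma), nor without 2i_LIF array 3 or 4 or EpiSC array 1 (-1.99, -2.26 and -1.99). Pdgfra, a receptor of that lineage and of fibroblasts, was lower, at -4.84 (SE 0.62, adjusted p = 1.0e-05, detected on 2 of 4 2i_LIF arrays). The laminin gene Lama1 read 3.92, 4.54, 4.64 and 4.24 in 2i_LIF and 0.26, -0.43, -0.36 and -0.59 in EpiSC, a difference of 4.61 (SE 0.39, adjusted p = 1.17e-07) in the other direction. For trophectoderm 5 of 13 tested members were called higher in 2i_LIF, 3 lower and 5 not called, with a median difference of 0.68 (0.99 on slide 2 alone), with Cdx2 not well above background in any group. For neural ectoderm 3 of 14 tested members were called higher in 2i_LIF, 7 lower and 4 not called, with a median difference of -1.21 (-1.89 on slide 2 alone), with Sox1 and Nes lower, at -2.23 and -2.55. As a mean of its probes Sox1 gave -0.92, under 2-fold.

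Cadherins and keratins differed between 2i_LIF and EpiSC. Among epithelial junction and keratin genes 3 of 20 tested members were called higher in 2i_LIF, 8 lower and 9 not called, with a median difference of -0.55 (0.13 on slide 2 alone). Between 2i_LIF and LIF_serum 1 member was called higher and 11 lower in 2i_LIF, with a median of -1.78. Cdh1 (E-cadherin) read 3.02, 3.55, 4.12 and 4.89 in 2i_LIF and 1.28, 1.43, 1.89 and 1.51 in EpiSC, a difference of 2.37 (SE 0.40, adjusted p = 1.3e-04). Krt8, a keratin of simple epithelia, read -3.97, -3.52, -1.04 and -1.61 in 2i_LIF and 4.31, 4.55, 4.65 and 4.21 in EpiSC, a difference of -6.97 (SE 0.71, adjusted p = 9.56e-07), and its partner Krt18 was lower, at -5.50 (SE 0.59, adjusted p = 1.47e-06). Mean levels in LIF_serum were 4.09 for Cdh1 and 3.18 for Krt8. The adhesion gene Epcam was lower, at -1.76 (SE 0.33, adjusted p = 3.59e-04), and Grhl3, an epithelial transcription factor gene, higher by 5.40 (SE 0.27, adjusted p = 5.03e-10). Among EMT and mesenchymal genes 0 of 15 tested members were called higher in 2i_LIF, 12 lower and 3 not called, with a median difference of -2.60 (-2.39 on slide 2 alone). Fibroblast markers, described next, differed between the same arrays (21 of 22 lower in 2i_LIF), and their part in these differences was not tested. Zeb2, a repressor of E-cadherin, read -7.45, -7.40, -3.75 and -6.80 in 2i_LIF and 1.19, 0.62, 0.65 and 0.64 in EpiSC, a difference of -7.12 (SE 0.79, adjusted p = 2.1e-06, detected on 1 of 4 2i_LIF arrays). Snai1 and Vim (vimentin) were lower, at -3.76 and -2.16, and Fn1 (fibronectin) gave 0.56 (SE 0.18, adjusted p = 0.0138), under 2-fold.

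Markers of fibroblasts, the usual feeder cells, were strongly higher on all EpiSC arrays. Of 22 tested members, 0 were called higher in 2i_LIF, 21 lower and 1 not called, with a median difference of -5.75 (-7.31 on slide 2 alone). The summed signal of the 22 genes was 232 to 365 times the array's 75th percentile in EpiSC and 5.0 to 6.18 times in 2i_LIF. In LIF_serum it was 148 and 116 on arrays 1 and 2 and 19.6 and 20.2 on arrays 3 and 4. Col1a1, a chain of type I collagen, read -1.90, -1.67, -2.31 and -2.68 in 2i_LIF and 5.48, 5.28, 5.61 and 5.18 in EpiSC, a difference of -7.53 (SE 0.62, adjusted p = 9.9e-08). Dcn (decorin) read -5.0, -5.96 and -6.90 on 2i_LIF arrays 1, 3 and 4, with no value on array 2, and 4.51, 3.42, 4.50 and 3.61 in EpiSC. Its difference, fitted without that array, was -9.96 (SE 0.99, adjusted p = 1.16e-06, detected on 1 of 4 2i_LIF arrays). EpiSC arrays 1 and 3 were higher than arrays 2 and 4 for Dcn, and also for Ccl2, Ccl7 and Cxcl1. Lum (lumican) was at background on all 2i_LIF arrays (at least 111-fold). What part cells other than epiblast stem cells had in the EpiSC levels was not tested.

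Contractile, matrix and growth factor genes also differed between 2i_LIF and EpiSC. All 18 tested contractile and YAP/SRF responsive genes were called lower in 2i_LIF, with a median difference of -4.85 (-4.81 on slide 2 alone). Their summed signal was 743 to 856 in EpiSC and 75.6 to 112 in 2i_LIF, in multiples of the 75th percentile. On LIF_serum arrays 1 to 4 it was 264, 268, 363 and 362, with arrays 1 and 2 on slide 1 and arrays 3 and 4 on slide 2. Single genes differed in this. Tagln read 5.34, 5.33, 6.02 and 6.0 on these arrays, while Thbs1 read 3.54, 3.65, 1.65 and 2.07. How these levels relate to the fibroblast sum was not tested. Acta2 (smooth muscle actin) read -3.90, -3.47, -1.58 and -4.69 in 2i_LIF and 6.16, 5.79, 6.02 and 5.27 in EpiSC, a difference of -9.22 (SE 0.53, adjusted p = 2.06e-09). Tagln (transgelin) was lower, at -7.37 (SE 0.28, adjusted p = 2.32e-11), and Ccn2 (Ctgf) and Ccn1 (Cyr61), targets of YAP, at -3.30 and -4.99. On the 2i_LIF arrays Tagln read -0.14, 0.17, 0.97 and -0.36, so it was measurable there. Among integrins, laminins and matrix genes 2 of 24 tested members were called higher in 2i_LIF, 16 lower and 6 not called, with a median difference of -1.70 (-1.58 on slide 2 alone). Among insulin-like growth factor genes 0 of 15 tested members were called higher in 2i_LIF, 9 lower and 6 not called, with a median difference of -2.12 (-1.85 on slide 2 alone), with the binding protein genes Igfbp3 and Igfbp5 lower, at -5.34 and -4.91.

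**Figure D5:**
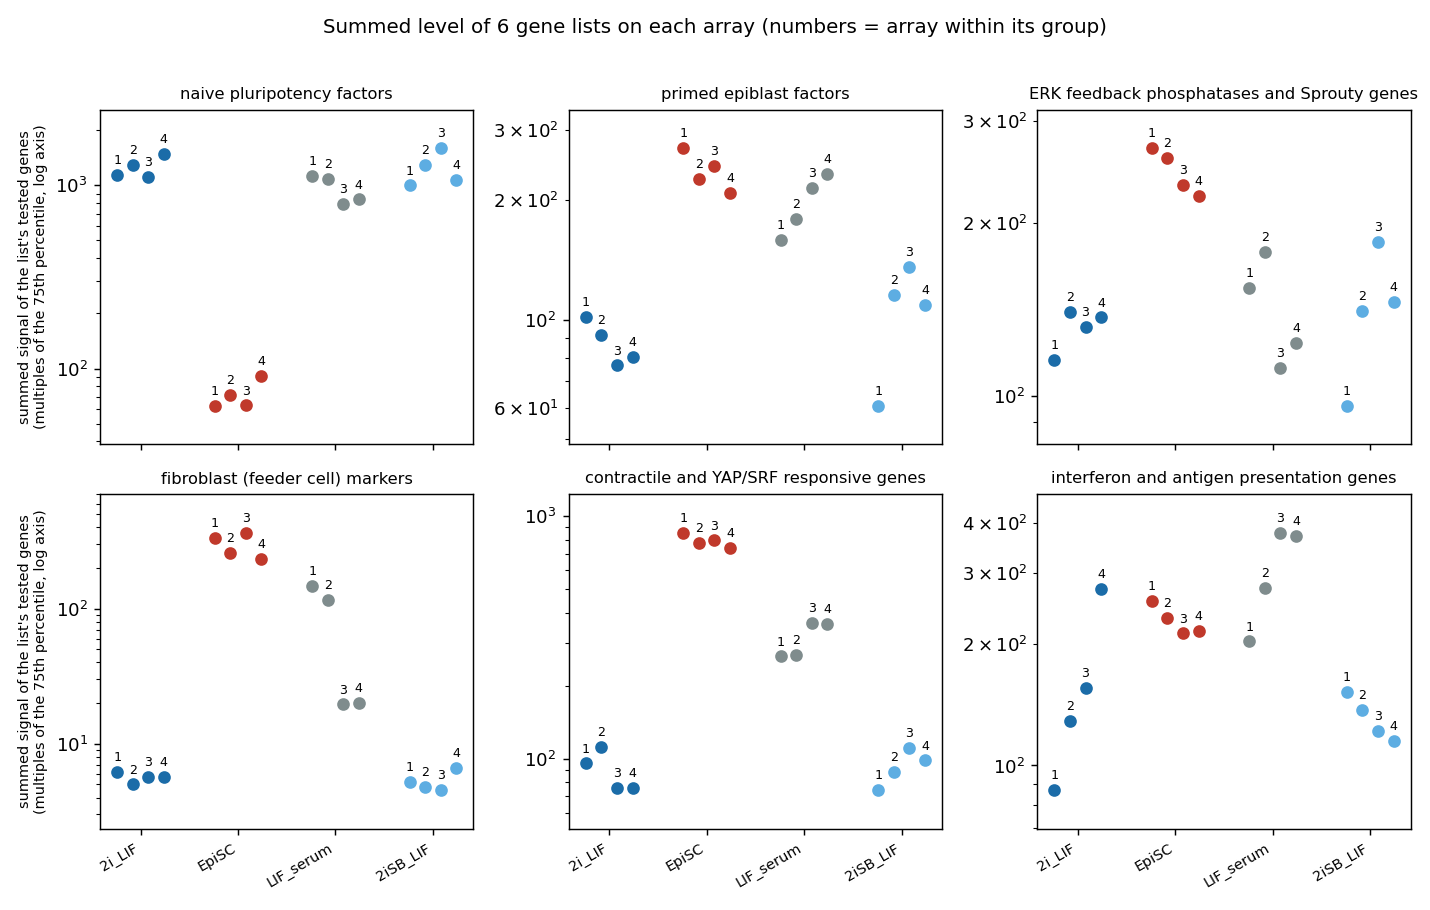
Summed signal of the tested genes of 6 lists on each array (y axis, multiples of the array's 75th percentile, log axis), by group (x axis), with the array number above each point. Fibroblast markers sum to 232 to 365 in EpiSC and 5.0 to 6.18 in 2i_LIF, while interferon and antigen presentation genes overlap between these groups through 2i_LIF array 4.

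Chemokine and cytokine genes were lower in 2i_LIF apart from the receptor Kit. Of 13 tested members (of 15 listed), 1 was called higher in 2i_LIF, 11 lower and 1 not called, with a median difference of -6.28 (-6.76 on slide 2 alone). Ccl2, a chemokine that attracts monocytes, read -5.57, -4.95, -4.94 and -5.18 in 2i_LIF and 5.75, 4.67, 6.01 and 4.46 in EpiSC, a difference of -10.38 (SE 0.79, adjusted p = 4.01e-08, detected on 1 of 4 2i_LIF arrays). Kit, the receptor for stem cell factor, read 3.92, 4.48, 3.91 and 4.63 in 2i_LIF and -0.28, -1.71, -1.34 and -1.20 in EpiSC, a difference of 5.37 (SE 0.32, adjusted p = 2.9e-09). Lif itself was lower, at -1.38 (SE 0.30, adjusted p = 0.00103), and with normexp at -0.61, under 2-fold. The AP-1 sequence TGANTCA was in 4 of 12 promoters of this list (33.3%), those of Cxcl10, Il6, Il11 and Lif, beside 5.55% of those of genes tested. It was picked from the same search.

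Interferon and antigen presentation genes were mostly lower in 2i_LIF. Of 22 tested members (of 23 listed), 3 were called higher in 2i_LIF, 14 lower and 5 not called, with a median difference of -2.13 (-1.38 on slide 2 alone). With the slide as a block the median was -1.58, and with members at background set at their bounds it was -1.38. Between 2i_LIF and LIF_serum 0 members were called higher and 14 lower in 2i_LIF, with a median of -1.81. Psmb8, a subunit of the immunoproteasome, read 1.73, 1.46, 1.06 and 1.21 in EpiSC and was at background in 2i_LIF (at least 101-fold). Its mean in LIF_serum was 1.51. The MHC class I genes H2-K1 and H2-D1 and their partner B2m were lower, at -3.91, -3.33 and -3.10. Ifitm1, a membrane protein gene of early germ cells and interferon responses, read 3.41, 4.98, 5.67 and 6.59 in 2i_LIF and 2.89, 2.22, 1.77 and 1.76 in EpiSC, a difference of 3.0 (SE 0.50, adjusted p = 1.33e-04). The summed signal of the list overlapped between the groups, at 86.8 to 274 in 2i_LIF and 213 to 257 in EpiSC, because 2i_LIF array 4 was the highest of the 8.

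Hox and imprinted genes leaned to EpiSC. Among Hox genes 5 of 25 tested members were called higher in 2i_LIF, 14 lower and 6 not called, with a median difference of -1.50 (-0.75 on slide 2 alone). With members at background set at their bounds the median was -0.83. Hoxc6 was lower, at -5.0, and Hoxb6 was at background in 2i_LIF (at least 7.54-fold). Hoxc13, a posterior gene, read 0.22, 0.46, -0.56 and 0.36 in 2i_LIF and was at background in EpiSC (at least 62.7-fold). Among imprinted genes 0 of 24 tested members were called higher in 2i_LIF, 13 lower and 11 not called, with a median difference of -1.48 (-1.59 on slide 2 alone). Dcn, described with the fibroblast markers, was among the members called lower. Between 2i_LIF and LIF_serum 1 imprinted gene was called higher and 14 lower in 2i_LIF, with a median of -1.33. The part of fibroblasts in the Hox and imprinted gene levels was not tested. Cdkn1c, a maternally expressed CDK inhibitor, read 1.68, 1.06, -0.45 and -1.83 in 2i_LIF and 4.35, 4.51, 4.39 and 4.63 in EpiSC, a difference of -4.35 (SE 0.72, adjusted p = 1.15e-04). Its mean in LIF_serum was 3.10. The paternally expressed genes Nnat, Mest, Peg10 and Igf2 were lower, at -5.89, -1.6, -3.53 (detected on 3 of 4 2i_LIF arrays) and -2.94 (detected on 1 of 4 2i_LIF arrays). Reference genes were mostly uncalled: 1 of 15 tested members was called higher in 2i_LIF, 3 lower and 11 not called, with a median difference of -0.05 (0.19 on slide 2 alone). B2m and the transferrin receptor gene Tfrc were the largest, at -3.10 and 1.67.

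Probes named on the array only by genome position (mm9) were called higher more often than lower. Of 6893 tested, 1998 (29.0%) were higher and 918 (13.3%) lower in 2i_LIF, with a median difference of 0.54. The counts were closer with quantile normalization (1430 higher, 1230 lower), with the slide as a block (1349 and 1013) and on slide 2 alone (1408 and 1209). Among the 4416 well above background on all 8 arrays, 1010 were higher and 319 lower. The largest rise was at chr13:98267049-98267604, forward strand, where a pair of probes read 3.02 to 3.88 and 3.01 to 3.69 in 2i_LIF and -5.11 to -4.46 and -4.59 to -4.17 in EpiSC. They differed by 8.18 (SE 0.23, adjusted p = 1.31e-13, limma) and 7.89 (SE 0.22, adjusted p = 1.1e-13, limma). The next rise was at chr13:65716675-65765575, forward strand, with 6.52. The largest falls were at chr2:128211990-128215223 (-4.97), chr6:83368261-83407280 (-4.19) and chr4:129380903-129390686 (-4.15), all on the reverse strand. The files used here do not pair these positions with genes.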

How the data were processed

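RNA of 16 mouse lines was measured on 1-colour Agilent arrays, and 8 arrays enter the comparison. Per the file headers, the authors' scanner files hold intensity values from Feature Extraction 10.7.1.1 (background-subtracted processed signals), on a design annotated to mm9. The submitters' processing notes name limma. The authors also deposited a table of log2 values for 42316 probes, used as an alternative. Its centring is not stated. Its columns correlated at 0.989 to 0.994 with the same arrays.

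Spots that were controls or outliers were left out, spots of a probe were averaged, and log2 signals were set relative to each array's 75th percentile. Probes were named by RefSeq accession (27656 of 55681 had 1 symbol). A gene was represented by 1 probe. limma 3.58.1 in R 4.3.3 was fitted over all 16 arrays with a mean per group, and tested on simulated data. The labels do not say that replicates came from separate embryos, so p-values measure the spread between these lines.

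Genes named are the 12 largest rises and falls measured on all 8 arrays, the 6 largest bounds each way, key genes of the lists, up to 4 of the largest called members per list and 3 position-named probes each way. Some further members, among them uncalled ones, were chosen after their values were seen. Members and lists were chosen with earlier results of these data known. Alternatives covered scaling, background correction, the dim filter, slide, passage, probe choice, fold threshold and left-out arrays. One, holding signals at the background floor, was chosen after seeing the data. Normexp used median signals, since the files hold no mean signal. Promoters came from the RefSeq table of GRCm38.p6. Some list members counted in the totals are not reported here by name.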

Additional observations from a re-analysis of the deposited data

Results flagged for a closer look

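In groups of 4 arrays, 8 values stood apart from the other 3 by a gap past Dixon's 95% limit, relative to the group's range, out of 143 sets of a gene and a group examined. Chance gives this in about 1 in 20 groups, so the number is close to what chance alone would give. EpiSC array 1 was high for Fgf5 (4.42, the others 3.58 to 3.72), Etv5 (5.67, the others 5.52 to 5.54), Cdh2 (4.65, the others 4.02 to 4.10) and Zeb2 (1.19, the others 0.62 to 0.65). EpiSC array 4 was high for Klf4 (4.18, the others 3.79 to 3.84) and Lefty2 (6.82, the others 6.49 to 6.53). In 2i_LIF, array 4 was high for Gcat (5.35, the others 4.51 to 4.58) and array 1 for Eif2s3y (-5.27, the others -7.47 to -7.25), a gene not well above background on any of these arrays.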

How the results depend on the processing

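The 5808 genes called became 3849 (2040 lower) when every one of the 8 arrays had to be well above background, 8717 (4015 higher) with no minimum fold and 3198 (1369 higher, 1829 lower) at 4-fold. These settings test fewer genes or change the threshold. Other settings gave 4430 (normexp) to 6988 (no dim filter), and leaving out 1 array 5604 to 5969. Replicate numbers did not pair the arrays (correlations of deviations 0.025 to 0.096), and with the replicate number as a block 5806 genes were called. Position-named probes called higher and lower numbered 1006 and 399 with normexp and 999 and 445 at 4-fold. They numbered 1007 and 319 when only probes well above background on all 8 arrays were fitted. Those called higher were 1265 in the authors' deposited values and 3822 with no dim filter, and 1642 to 2567 with 1 array left out. The cause was not tested for normexp, the deposited values and the slide. Of the genes named, only Pou5f1 and Klf4, both uncalled, changed sign. With the slide as a block they gave -0.21 and -0.12, and on slide 2 alone -0.42 and -0.30. Pou5f1 gave -0.011 with passage in the fit, -0.012 without 2i_LIF array 1 and -0.030 without array 2, in a range of -0.030 to 0.20 with 1 array left out. Of 873 values of list medians under alternatives, 71 moved by more than the spread between replicates. In 32 of the 873, from 7 lists, the median changed sign: the epithelial list (-0.55, or 0.13 on slide 2 alone) and 6 lists with medians within 0.1 of 0.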
